A study of Danio rerio with 12 samples.

Results

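Zebrafish embryos carrying H2A.Z-mCherry were compared with wild-type embryos without drug, and 654 of 12293 tested genes differed between them. In the fusion the red fluorescent protein mCherry is joined to H2A.Z, a variant of the core histone H2A. The comparison uses 6 of the study's 12 total RNA libraries: 3 from H2A.Z-mCherry embryos in 0.1% DMSO and 3 from wild-type embryos in 0.1% DMSO, the solvent of the drug. DMSO was added to newly fertilised eggs, about 50 to a well in 5 mL, and whole embryos were ground in Trizol at 12 hours post fertilisation, when the body axis is extending and the first somites form. The labels name the genotype H2A.Z overexpression and the wild-type stock AB/Tuebingen. The sources used here do not give the promoter of the fusion gene, its site and copy number, the strain background of the line or whether it descends from 1 founder. Nor do the labels say whether replicates came from separate clutches or wells, so the p-values measure the spread between these libraries, which may be technical. The other 6 libraries came from the same genotypes in 100 µM 5-aza-2'-deoxycytidine (5AzadC), an inhibitor of DNA methylation. They entered the same fit and served as a second set of H2A.Z-mCherry and wild-type embryos, with no library in common with the DMSO groups. All genes with enough counts were taken, with no other choice by level or change: the filter kept 12293 of 32520 genes, and 7468 of the 32520 had no count in any of the 12 libraries.

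H2A.Z takes the place of the core histone H2A in a share of nucleosomes, mainly those that flank the start sites of genes. The SRCAP and p400/Tip60 complexes exchange it into chromatin, and INO80 and the chaperone ANP32E take it out. In early zebrafish embryos nucleosomes with H2A.Z sit at promoters where DNA methylation is low. Wild-type embryos also hold H2A.Z, made by their own genes and inherited from the egg.

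The DMSO libraries held 1267412, 1660911 and 1182422 counts from H2A.Z-mCherry embryos and 1566843, 1740059 and 1535951 counts from wild-type embryos. At these depths 1 count was worth 0.575 to 0.850 CPM, the unit used here for counts scaled to library size with edgeR's TMM factors. The correlation of log2 CPM was 0.934 to 0.946 among the H2A.Z-mCherry libraries, 0.947 to 0.952 among the wild-type libraries and 0.910 to 0.923 between the genotypes. The median log2 fold change over all tested genes was -0.00, and 49.9% of them were above 0. The RNA of the signal recognition particle, rn7sl1, took 7.28% to 9.02% of the counts in H2A.Z-mCherry libraries and 9.13% to 9.29% in wild-type libraries, and leaving it out gave 661 called genes. None of the 13 protein genes of the mitochondrial genome had a count in any library.

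The genes for H2A.Z itself came first, as a check of the label. h2az2b (ENSDARG00000116491), which encodes an H2A.Z protein, had 455, 510.2 and 454 CPM in H2A.Z-mCherry libraries and 432, 365 and 386 CPM in wild-type libraries. All 3 H2A.Z-mCherry values lay above all 3 wild-type values, by a small margin. The log2 fold change was 0.27 ± 0.09 and missed the threshold (edgeR's quasi-likelihood test, Benjamini-Hochberg adjusted p = 0.0746). In 1 of 20 alternatives, without wild-type replicate 1, h2az2b passed the threshold, with 0.34 ± 0.10 and an adjusted p of 0.0488. It did not pass in the others, where the adjusted p reached 0.316 without H2A.Z-mCherry replicate 2. H2AZ2 (ENSDARG00000068820), the other H2A.Z gene matched by symbol, had 34.8, 52.9 and 37.4 CPM in H2A.Z-mCherry libraries and 43.0, 40.3 and 51.5 CPM in wild-type libraries, and these overlapped (log2 fold change -0.08 ± 0.21, adjusted p = 0.906). Summed, the H2A.Z genes had 515 ± 41.8 CPM in H2A.Z-mCherry libraries and 439 ± 34.8 CPM in wild-type libraries (SD, n = 3 each; exact permutation p = 0.1, two-sided), which is the smallest p that 3 against 3 allows. A symbol for h2az1 matched no gene, and how reads of the fusion gene were counted is not stated in the labels. The mCherry part of the fusion was not analysed here. The genotype label therefore rests on the labels and not on these counts. None of the 29 tested genes for loading or removing H2A.Z was called (median log2 fold change 0.15, 21 of 29 above 0). Their summed level was 4206 ± 139 CPM in H2A.Z-mCherry libraries and 3815 ± 103 CPM in wild-type libraries (SD, n = 3 each; exact permutation p = 0.1, two-sided).

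Of the 12293 tested genes, 336 were higher (2.73%) and 318 lower (2.59%) in H2A.Z-mCherry embryos at an adjusted p under 0.05, together 5.32% of all tested. The unadjusted p was under 0.05 for 2097 genes. The median size of a called change was 2.11-fold. A log2 fold change of at least 1 was reached by 162 higher and 187 lower genes, of at least 2 by 69 and 94, and of at least 4 by 14 and 25. Of the 654 calls 349 thus changed by at least 2-fold and 305 by less, and among the largest changes falls outnumbered rises. Of the called genes 96.3% had no overlap between the 3 H2A.Z-mCherry and the 3 wild-type values, as had 21.5% of all tested genes. The share of genes called grew with their level. It was 3.6% below a mean of 10 CPM and 25.7% among the 70 genes at 1000 CPM and above, where 21.4% were higher and 4.29% lower. Called genes below 10 CPM changed by a median of 3.01 on the log2 scale and those above 1000 CPM by 0.40. With whole embryos, a difference in RNA per cell and a difference in the number of cells of a type cannot be told apart.

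**Figure D1:**
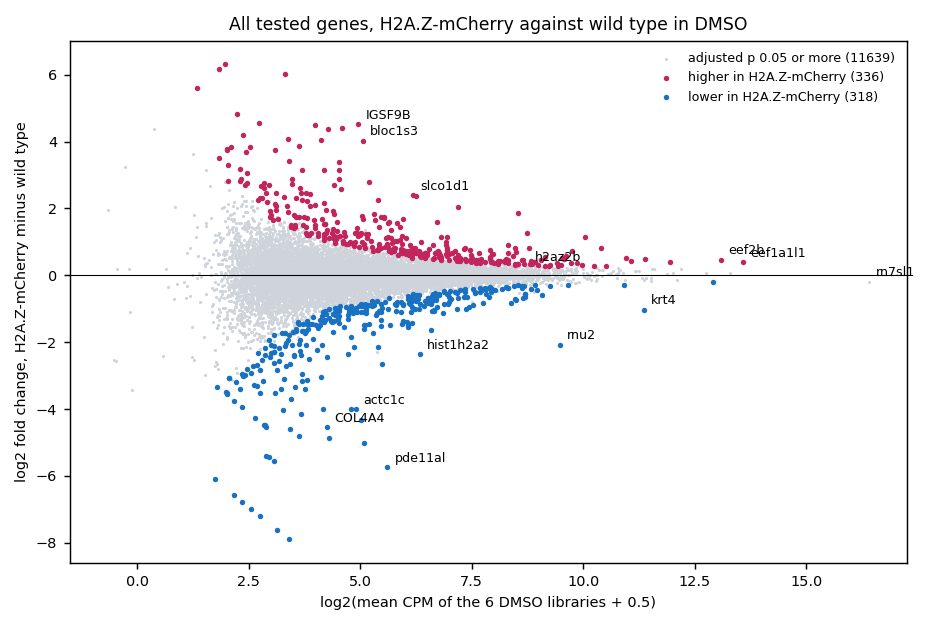
Log2 fold change of each of the 12293 tested genes (H2A.Z-mCherry minus wild type, both in DMSO) against its mean level in the 6 DMSO libraries on a log2(CPM + 0.5) scale. Red points are the 336 genes called higher, blue points the 318 called lower, and grey points the rest. The largest changes in both directions lie at low levels, while eef1a1l1 and eef2b are called at small changes at the highest levels.

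The 12 highest log2 fold changes among called genes with at least 10 CPM and no overlap between groups were 4 U1 RNA copies, 3 genes without a symbol and 5 named protein genes. IGSF9B (ENSDARG00000069467), an adhesion protein of inhibitory synapses in mammals, had 55.1, 48.2 and 72.2 CPM in H2A.Z-mCherry libraries and 1.90, 2.3006 and 3.26 CPM in wild-type libraries. bloc1s3 (ENSDARG00000068828), a subunit of the BLOC-1 complex that builds lysosome-related organelles such as pigment granules, had 81.8, 53.5 and 51.0 CPM in H2A.Z-mCherry libraries and 4.43, 2.3006 and 4.56 CPM in wild-type libraries. knl1 (ENSDARG00000070239), a scaffold of the kinetochore, had 37.3, 28.8 and 42.5 CPM in H2A.Z-mCherry libraries and 1.90, 0.575 and 2.61 CPM in wild-type libraries. For each of the 3 genes the lowest H2A.Z-mCherry value was more than 10 times the highest wild-type value. The log2 fold changes were 4.51 ± 0.40 for IGSF9B (adjusted p = 6.21e-15), 4.03 ± 0.34 for bloc1s3 (adjusted p = 2.78e-15) and 4.37 ± 0.47 for knl1 (adjusted p = 2.21e-11). SLC8A2, a sodium-calcium exchanger, had 34.8, 17.6 and 14.4 CPM in H2A.Z-mCherry libraries and 3.16, 0.575 and 0.652 CPM in wild-type libraries (log2 fold change 3.86 ± 0.60, adjusted p = 1.76e-06). FBXL14, an F-box protein of ubiquitin ligases, had 12.2, 15.3 and 17.8 CPM in H2A.Z-mCherry libraries and 0, 0.575 and 2.61 CPM in wild-type libraries (ENSDARG00000034497, log2 fold change 3.76 ± 0.70, adjusted p = 6.56e-05). For ENSDARG00000003132 the H2A.Z-mCherry libraries held 80 counts in all and the wild-type libraries 1, a ratio of 94.5 (95% counting interval 16.5 to 3780).

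Among the 8 smallest p-values of higher genes were 3 further genes outside the structural RNAs. slco1d1 (ENSDARG00000104108), an organic anion transporter, had 99.7, 118 and 147 CPM in H2A.Z-mCherry libraries and 15.2, 21.9 and 31.9 CPM in wild-type libraries. The lowest H2A.Z-mCherry value was well above the highest wild-type value (log2 fold change 2.40 ± 0.21, adjusted p = 2.78e-15). usp54a, of the ubiquitin-specific protease family, had 136, 165 and 173 CPM in H2A.Z-mCherry libraries and 56.3, 51.8 and 48.2 CPM in wild-type libraries (log2 fold change 1.6 ± 0.16, adjusted p = 1.88e-12). si:ch1073-159d7.10 (ENSDARG00000105366), known by its clone name, had 159, 108 and 113 CPM in H2A.Z-mCherry libraries and 22.8, 33.9 and 15.6 CPM in wild-type libraries (log2 fold change 2.37 ± 0.20, adjusted p = 2.78e-15). Of the 7 tested genes named for the same clone 3 were higher, this gene included, and none lower. Over all tested genes 2.73% were higher and 2.59% lower. The summed level of the 7 was 917, 813 and 853 CPM in H2A.Z-mCherry libraries, against 682, 648 and 597 CPM in wild-type libraries. Other clones differed. Of 6 tested genes named for si:dkey-172k15 0 were higher and 3 lower. For si:dkey-23a13 2 of 15 were higher and 3 lower, and for si:dkey-261m9 2 of 12 were higher and 3 lower.

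The falls reached further. pde11al (ENSDARG00000006151), a cyclic nucleotide phosphodiesterase, had 1.62, 1.76 and 1.70 CPM in H2A.Z-mCherry libraries and 65.1, 118 and 100.4 CPM in wild-type libraries. It was close to absent in every H2A.Z-mCherry library and at a moderate level in every wild-type one (log2 fold change -5.73 ± 0.35, adjusted p = 1.18e-22). RIMBP2 (ENSDARG00000104101), a protein of the presynaptic active zone, had 0, 1.76 and 4.25 CPM in H2A.Z-mCherry libraries and 43.6, 67.3 and 84.7 CPM in wild-type libraries (log2 fold change -5.003 ± 0.46, adjusted p = 5.21e-11). actc1c (ENSDARG00000076126), an actin of the cardiac type, had 3.24, 3.53 and 3.40 CPM in H2A.Z-mCherry libraries and 47.4, 80.5 and 39.8 CPM in wild-type libraries (log2 fold change -4.01 ± 0.38, adjusted p = 1.46e-13). COL4A4 (ENSDARG00000002831), a chain of basement membrane collagen IV, had 1.62, 1.76 and 0.850 CPM in H2A.Z-mCherry libraries and 39.2, 25.9 and 43.0 CPM in wild-type libraries. The groups did not overlap for any of these 4 genes, and the H2A.Z-mCherry values were near the limit of counting. The log2 fold change of COL4A4 was -4.55 ± 0.50 (adjusted p = 5.21e-11). capn8, a calpain protease, was kept at a measurable level, with 9.72, 8.23 and 19.5 CPM in H2A.Z-mCherry libraries and 70.8, 83.4 and 75.6 CPM in wild-type libraries (log2 fold change -2.66 ± 0.27, adjusted p = 4.18e-12).

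Several genes lost nearly all of their counts. PRKCQ, protein kinase C theta, had 1 count in the H2A.Z-mCherry libraries and 66 in the wild-type libraries, a ratio of wild type to H2A.Z-mCherry of 55.9 (95% counting interval 9.69 to 2240). fbxo11b, an F-box protein, had 3 counts in the H2A.Z-mCherry libraries and 95 in the wild-type libraries, a ratio of 26.8 (95% counting interval 8.9 to 132). Some genes had no count in H2A.Z-mCherry with DMSO, and their folds are bounds against 3 counts over the group. si:dkeyp-94g1.1 had 0 counts in H2A.Z-mCherry libraries and 96 in wild-type libraries and was at least 27.1-fold lower. si:dkey-11n14.1 had 0 counts in H2A.Z-mCherry libraries and 81 in wild-type libraries and was at least 22.9-fold lower. ENSDARG00000104341 had 0 counts in H2A.Z-mCherry libraries and 60 in wild-type libraries and was at least 16.9-fold lower. gpbar1, a receptor for bile acids, had 0 counts in H2A.Z-mCherry libraries and 39 in wild-type libraries and was at least 11-fold lower. ftr06, of a TRIM gene family that has expanded in fish, had 0 counts in H2A.Z-mCherry libraries and 45 in wild-type libraries and was at least 12.7-fold lower. These limits cover counting error only.

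**Figure D2:**
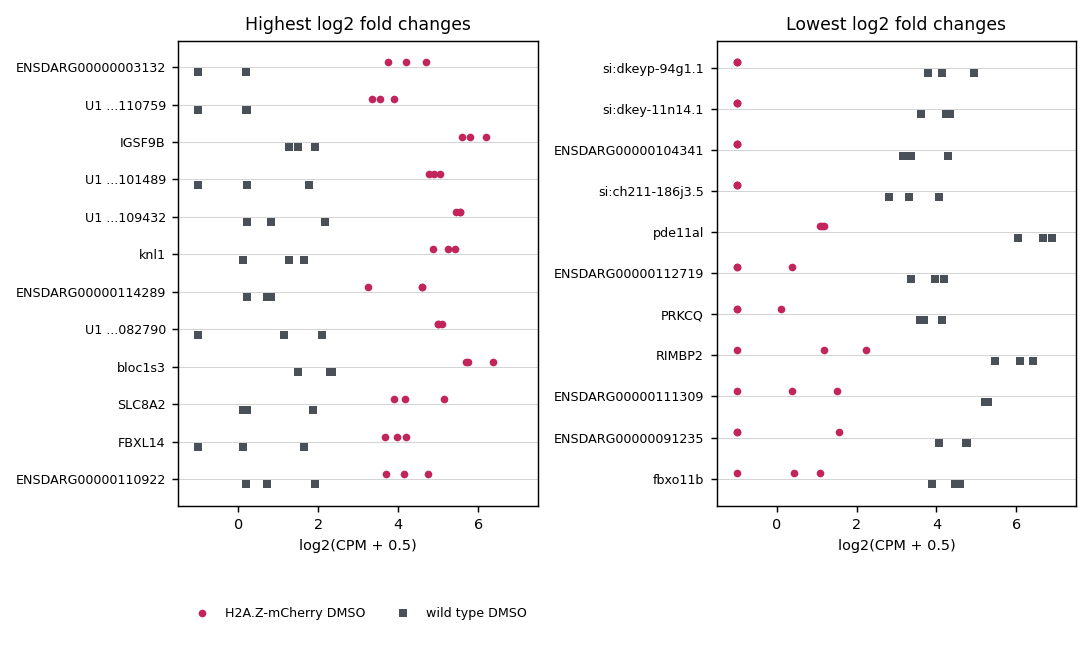
Level of the 12 genes with the highest (left) and 11 of the 12 with the lowest (right) log2 fold changes in each DMSO library, on a log2(CPM + 0.5) scale. Red circles are H2A.Z-mCherry libraries and dark squares wild-type libraries, 3 each. The genes were chosen for having no overlap between groups, and every H2A.Z-mCherry point lies on 1 side of every wild-type point. Libraries without a count lie at -1.

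A stricter view is given by genes with counts in all 6 libraries of a genotype, drug included, and none in the 6 of the other. There were 16 genes with counts only in H2A.Z-mCherry and 14 with counts only in wild type. Of these, 1 and 3 passed the filter on low counts. The tested genes were a U1 copy (ENSDARG00000113698), with 79 counts over the 6 H2A.Z-mCherry libraries, and si:dkeyp-94g1.1, ENSDARG00000104341 and gpbar1, with 116, 113 and 59 counts over the 6 wild-type libraries. Among the genes below the filter, ATF7 had 50 counts, arhgap20b 44 and ddias 35 in H2A.Z-mCherry and 0 in wild type. RHCG, an ammonia transporter, and CLCN1, a chloride channel, had 0 counts in H2A.Z-mCherry and 33 in wild type each. All 30 genes were found by their counts, so their split between genotypes is a description.

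Small structural RNAs changed copy by copy. Of 117 tested genes named as structural RNAs 15 were higher and 9 lower (20.5% called, against 5.32% of all tested genes). U1 is the RNA of the small nuclear ribonucleoprotein that binds the splice donor site, and 22 copies were tested: 9 were higher and 3 lower. The copy ENSDARG00000109432 had 46.2, 45.9 and 43.3 CPM in H2A.Z-mCherry libraries and 1.26, 4.03 and 0.652 CPM in wild-type libraries (log2 fold change 4.41 ± 0.41, adjusted p = 1.23e-13). The copy ENSDARG00000113445 had 4.86, 1.76 and 2.55 CPM in H2A.Z-mCherry libraries and 79.1, 57.5 and 46.3 CPM in wild-type libraries (log2 fold change -4.34 ± 0.38, adjusted p = 4.04e-15). So copies with the same name were strongly higher and strongly lower in the same libraries. Summed over all 22 copies, U1 had 1008, 942 and 867 CPM in H2A.Z-mCherry libraries, against 798, 683 and 601 CPM in wild-type libraries. The sum differed far less than the copies ENSDARG00000109432 and ENSDARG00000113445 did, and 10 of the 22 copies were not called (log2 ratio of the group means of the sum 0.44, exact permutation p = 0.1, two-sided, the smallest possible).

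rnu2 (ENSDARG00000117035), a U2 RNA of the branch point snRNP, gave the smallest p of all genes, with 293, 289.8 and 232 CPM in H2A.Z-mCherry libraries and 1111, 1216 and 1127 CPM in wild-type libraries. Every wild-type library held over 3 times the level of any H2A.Z-mCherry library (log2 fold change -2.08 ± 0.10, adjusted p = 2.78e-24). The other 4 tested U2 copies were not called, and the 5 together had 3849, 3582 and 3745 CPM in H2A.Z-mCherry libraries, against 4392, 5077 and 4355 CPM in wild-type libraries. Of these copies, ENSDARG00000115186 and ENSDARG00000111709 each had 2859 counts in H2A.Z-mCherry libraries and 3665 in wild-type libraries. The U2 sum may therefore hold the same reads more than once. All 3 tested U4 copies, whose RNA pairs with U6 in the spliceosome, were lower. Summed, they had 77.0, 113 and 123 CPM in H2A.Z-mCherry libraries, against 308, 243 and 172.04 CPM in wild-type libraries. The U4 copy ENSDARG00000083431 alone had 18.6, 13.5 and 14.4 CPM in H2A.Z-mCherry libraries and 86.0, 65.0 and 54.1 CPM in wild-type libraries (log2 fold change -2.14 ± 0.29, adjusted p = 3.39e-08). Another of them, ENSDARG00000112858, was not called without H2A.Z-mCherry replicate 1 or wild-type replicate 1 (adjusted p 0.0516 to 0.0524). With 5AzadC the U4 sum was 154 ± 16.0 CPM in H2A.Z-mCherry libraries and 148 ± 28.8 CPM in wild-type libraries (SD, n = 3 each). There ENSDARG00000083431 was still lower (-1.19), ENSDARG00000113699 was at -0.14 and ENSDARG00000112858 at 0.45.

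Of 51 tested copies of the signal recognition particle RNA, 5 were higher and 1 lower, where 2.73% of all tested genes were higher and 2.59% lower. The 51 together had 107690 ± 13242 CPM in H2A.Z-mCherry libraries and 115939 ± 1040 CPM in wild-type libraries (SD, n = 3 each; exact permutation p = 0.4, two-sided). The copy ENSDARG00000111072 had 1604, 1323 and 1396 CPM in H2A.Z-mCherry libraries and 715, 604 and 649.7 CPM in wild-type libraries (log2 fold change 1.13 ± 0.08, adjusted p = 4.52e-18). rn7sl1-5 had 1655, 1650.0 and 1872 CPM in H2A.Z-mCherry libraries and 1003, 956 and 969.7 CPM in wild-type libraries (log2 fold change 0.82 ± 0.08, adjusted p = 2.39e-13). The copy ENSDARG00000087015 had 55.9, 42.9 and 16.1 CPM in H2A.Z-mCherry libraries and 119.5, 97.2 and 93.8 CPM in wild-type libraries (log2 fold change -1.41 ± 0.22, adjusted p = 6.04e-06). The main copy, rn7sl1, holds most of these reads and was not called, with 92696, 71064 and 77978 CPM in H2A.Z-mCherry libraries and 91649, 91376 and 93023 CPM in wild-type libraries (log2 fold change -0.19 ± 0.12, adjusted p = 0.473). Copies of these RNAs are near-identical and the labels do not say how a read that maps to several of them was counted, so the level of a single copy is uncertain. The U1 copies ENSDARG00000116679 and ENSDARG00000116756, both called higher, differed in their counts over libraries by under 5%. The U1 sum and the number of higher U1 copies may therefore hold the same reads more than once.

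Whether the DMSO calls reappear in other libraries of the same genotypes was read from the 6 libraries with 5AzadC. The labels do not say whether DMSO and 5AzadC embryos of a genotype shared clutches or parents. The 5AzadC libraries may therefore not be an independent set. Of the 654 called genes 540 (82.6%) had the same sign there, 344 (52.6%) were called in the same direction and 37 in the opposite one. Over all tested genes 58.6% had the same sign, and over genes not called in DMSO 57.3%. In the 5AzadC libraries 1918 genes (15.6%) were called between genotypes, 983 higher (8%) and 935 lower (7.61%), and 30.4% of tested genes had no overlap between groups. Large changes recurred most: of the 163 genes with an absolute log2 fold change of at least 2, 155 (95.1%) had the same sign and 126 were called the same way. All 94 such falls had the same sign in 5AzadC. pde11al had 1 count in the H2A.Z-mCherry libraries with 5AzadC and 526 in the wild-type libraries with 5AzadC. On the log2 scale rnu2 was at -1.55 in 5AzadC, hist1h2a2 at -1.78, actc1c at -3.81, COL4A4 at -4.71, IGSF9B at 2.92 and bloc1s3 at 3.13. Of the 305 called genes that changed by under 1 on the log2 scale, 231 (75.7%) had the same sign and 124 were called the same way. The genotype difference itself depended on the drug for 461 of all tested genes (3.75%, interaction adjusted p under 0.05) and for 104 of the 654. The interaction contains the DMSO values by which the 654 were chosen. The 104 can therefore not be set against the share over all tested genes.

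**Figure D3:**
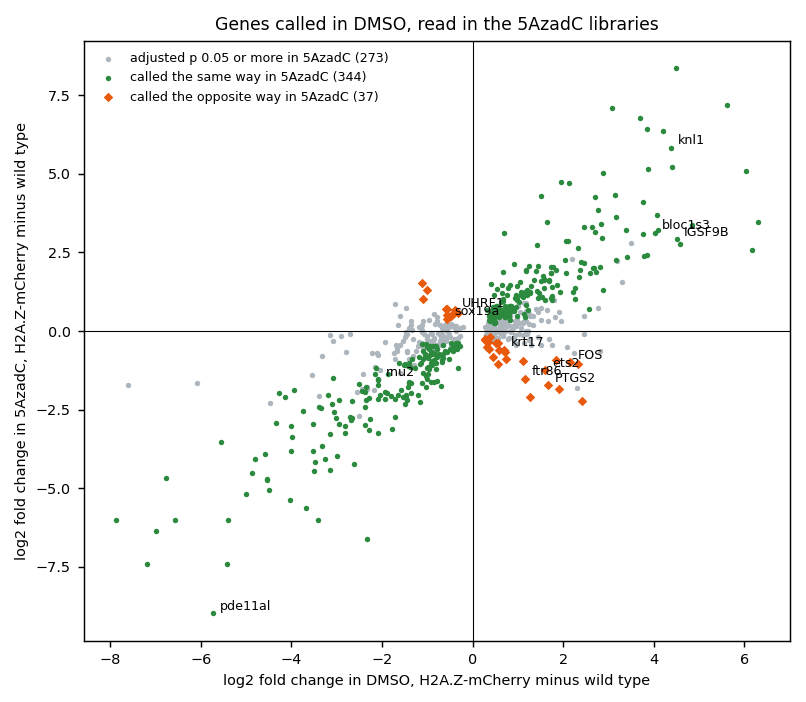
Log2 fold change of H2A.Z-mCherry minus wild type in the 5AzadC libraries against that in the DMSO libraries for the 654 genes called in DMSO. Green points (344) were called the same way in 5AzadC, orange diamonds (37) the opposite way and grey points (273) were not called there. Large changes lie along the diagonal, and the opposite calls gather at small and moderate rises in DMSO.

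Of 36 tested genes of the epidermis and periderm, the embryo's outer cell layers, 8 rose and 2 fell (27.8% called, against 5.32% of all tested genes), with a median log2 fold change of 0.32 and 30 of 36 above 0. krt92 (ENSDARG00000036834), a type I keratin of the surface layer, had 682, 600.2 and 728 CPM in H2A.Z-mCherry libraries and 486, 451 and 424 CPM in wild-type libraries (log2 fold change 0.56 ± 0.09, adjusted p = 7.59e-06). krt17 had 513, 353 and 457 CPM in H2A.Z-mCherry libraries and 302, 236 and 279.6 CPM in wild-type libraries (log2 fold change 0.69 ± 0.12, adjusted p = 5.31e-05). Neither gene showed overlap between groups, and the rises were well under 2-fold. cyt1l had 927, 792 and 861 CPM in H2A.Z-mCherry libraries and 603, 632 and 569 CPM in wild-type libraries (log2 fold change 0.51 ± 0.09, adjusted p = 9.89e-06). krt92, krt17 and cyt1l are abundant, and among all genes with a mean of 300 to 1000 CPM 12.6% were called. cldnb, a claudin of epithelial tight junctions, had 80.2, 50.0 and 63.7 CPM in H2A.Z-mCherry libraries and 27.2, 30.5 and 30.6 CPM in wild-type libraries (log2 fold change 1.12 ± 0.23, adjusted p = 0.000591). TP63, the transcription factor that keeps basal epidermal cells, was at 0.99 ± 0.29, and cdh1, the epithelial cadherin, at 0.36 ± 0.11. krt4 went the other way: this keratin had 1850.1, 1469 and 1840.2 CPM in H2A.Z-mCherry libraries and 3769, 3488 and 3262 CPM in wild-type libraries. It was the most abundant keratin named here, it was about 2-fold lower in every H2A.Z-mCherry library (log2 fold change -1.03 ± 0.09, adjusted p = 6.23e-11), and it was lower in 5AzadC too (-1.78 ± 0.09). anxa1c, an annexin, was also lower (-0.86 ± 0.21). The summed level of the list was 7394 ± 657 CPM in H2A.Z-mCherry libraries and 7936 ± 450.4 CPM in wild-type libraries (SD, n = 3 each; exact permutation p = 0.4, two-sided).

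The longest run of neighbouring tested genes called the same way was made of keratins: krt92, cyt1l, cyt1, krt17 and krt91, 5 genes in a row in the gene order of assembly GRCz12tu, all higher. cyt1 had 1237, 957 and 1128 CPM in H2A.Z-mCherry libraries and 939, 877 and 838 CPM in wild-type libraries (log2 fold change 0.32 ± 0.09, adjusted p = 0.0115). krt91 had 22.7, 31.2 and 36.5 CPM in H2A.Z-mCherry libraries and 20.2, 13.8 and 6.52 CPM in wild-type libraries (log2 fold change 1.15 ± 0.32, adjusted p = 0.0192). These genes are close paralogs, and reads shared between them are counted in an unknown way. With 5AzadC krt92, cyt1l, cyt1 and krt17 were lower in H2A.Z-mCherry (-0.37, -0.40, -0.50 and -0.61), and krt91 was not called (0.32). krt17 had 403, 520.3 and 399 CPM in H2A.Z-mCherry libraries with 5AzadC and 716, 609 and 689.8 CPM in wild-type libraries with 5AzadC. The H2A.Z-mCherry level was close to that in DMSO, while the wild-type level was more than 2 times its level in DMSO. The count of 8 epidermal rises became 5 in DESeq2 and without H2A.Z-mCherry replicate 2 or 3, and 4 without wild-type replicate 3. The calls lost were those of TP63 without H2A.Z-mCherry replicate 2 or 3 or wild-type replicate 3, in DESeq2 (adjusted p 0.0581 to 0.187), cdh1 without H2A.Z-mCherry replicate 1, 2 or 3 or wild-type replicate 1, 2 or 3, in DESeq2, without the filter, without H2A.Z-mCherry 5AzadC replicate 3 (adjusted p 0.0512 to 0.26), krt91 without H2A.Z-mCherry replicate 2 or 3 or wild-type replicate 2 or 3, in DESeq2 (adjusted p 0.0619 to 0.194) and cyt1 without H2A.Z-mCherry replicate 1 or wild-type replicate 3 (adjusted p 0.0844 to 0.119).

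Several immediate early genes, which cells switch on within minutes of a stimulus, were among the calls with DMSO. Of 33 tested genes of apoptosis and the stress response 5 rose and 1 fell (18.2% called, against 5.32% of all tested genes, median 0.19). FOS (ENSDARG00000031683), a subunit of the AP-1 transcription factor, had 40.5, 20.6 and 26.3 CPM in H2A.Z-mCherry libraries and 5.06, 9.20 and 4.56 CPM in wild-type libraries. Each H2A.Z-mCherry value was above each wild-type value by at least a factor of 2 (log2 fold change 2.16 ± 0.33, adjusted p = 9.87e-07). JUNB, its partner in AP-1, was higher at both of its tested genes. ENSDARG00000074378 had 29.985, 17.0 and 24.6 CPM in H2A.Z-mCherry libraries and 5.06, 2.88 and 5.21 CPM in wild-type libraries (log2 fold change 2.42 ± 0.48, adjusted p = 0.00028). ENSDARG00000104773 had 35.7, 25.9 and 23.8 CPM in H2A.Z-mCherry libraries and 15.2, 12.7 and 7.17 CPM in wild-type libraries (log2 fold change 1.27 ± 0.33, adjusted p = 0.01). The other rises were ier2a (0.69 ± 0.21) and ATF3 (1.76 ± 0.55), also early response factors, and the fall was atf4a (-0.44 ± 0.09), a factor of the integrated stress response. Without H2A.Z-mCherry replicate 1 or 3 or wild-type replicate 1, 2 or 3, and in DESeq2, 3 of these 5 rises were still called. The second JUNB gene was not called without H2A.Z-mCherry replicate 1 or wild-type replicate 3 (adjusted p 0.0752 to 0.0987), ier2a without H2A.Z-mCherry replicate 1 or 3 or wild-type replicate 1 or 2, in DESeq2 (adjusted p 0.0683 to 0.193) and ATF3 without H2A.Z-mCherry replicate 2 or 3 or wild-type replicate 1, 2 or 3, in DESeq2, without the filter (adjusted p 0.0602 to 0.189).

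A wider list of immediate early and wound response genes, drawn up after the values were seen, held 32 tested genes, of which 11 were higher and 1 lower, where 2.73% of all tested genes were higher and 2.59% lower. PHLDA1 had 36.5, 37.6 and 45.9 CPM in H2A.Z-mCherry libraries and 3.79, 5.18 and 11.1 CPM in wild-type libraries (log2 fold change 2.58 ± 0.32, adjusted p = 2.39e-09). PTGS2 (ENSDARG00000010276), a cyclooxygenase that makes prostaglandins, had 52.7, 47.6 and 80.7 CPM in H2A.Z-mCherry libraries and 12.6, 15.5 and 28.7 CPM in wild-type libraries (log2 fold change 1.66 ± 0.26, adjusted p = 1.74e-06). CEBPB had 38.1, 27.0 and 39.9 CPM in H2A.Z-mCherry libraries and 8.85, 17.8 and 15.6 CPM in wild-type libraries (log2 fold change 1.29 ± 0.30, adjusted p = 0.00214). ets2, a transcription factor downstream of growth factor signals, was at 1.6 ± 0.34, and irg1l, the fish counterpart of the itaconate-producing enzyme, at 1.90 ± 0.55. csrnp1a was lower (-1.35 ± 0.38). DUSP1 (0.14), BTG2 (0.17) and KLF6 (0.17) did not pass the test. The 11 rises numbered 7 in DESeq2, without H2A.Z-mCherry replicate 3 and without wild-type replicate 2, with irg1l among those lost, and 8 without any other DMSO library. The fall of csrnp1a was not called in those 3 cases.

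Several of these genes had the opposite difference with 5AzadC. FOS had 36.1, 48.9 and 45.8 CPM in H2A.Z-mCherry libraries with 5AzadC and 93.8, 71.6 and 97.9 CPM in wild-type libraries with 5AzadC. Here the wild-type values were the higher ones, without overlap. The log2 fold change between genotypes was -0.998 ± 0.23 in 5AzadC, and the change of that difference with the drug was 3.16 ± 0.40 (interaction adjusted p = 4.45e-08). PTGS2 had 21.1, 22.4 and 23.4 CPM in H2A.Z-mCherry libraries with 5AzadC and 84.9, 60.1 and 77.6 CPM in wild-type libraries with 5AzadC (interaction adjusted p = 1.41e-10). ftr86 (ENSDARG00000076839), a fish TRIM gene, had the smallest interaction p of the named genes. With DMSO it had 165, 135 and 165 CPM in H2A.Z-mCherry libraries and 72.7, 65.6 and 70.4 CPM in wild-type libraries (log2 fold change 1.15 ± 0.14, adjusted p = 4.38e-09). With 5AzadC it had 79.8, 73.1 and 76.0 CPM in H2A.Z-mCherry libraries and 236, 200.04 and 215 CPM in wild-type libraries (-1.51 ± 0.14). Of the 37 genes called in opposite directions, 26 were higher and 11 lower in H2A.Z-mCherry with DMSO. Among the 11 were sox19a, UHRF1, NKX6-2 and foxd1, of which sox19a and UHRF1 are described with their groups.

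**Figure D4:**
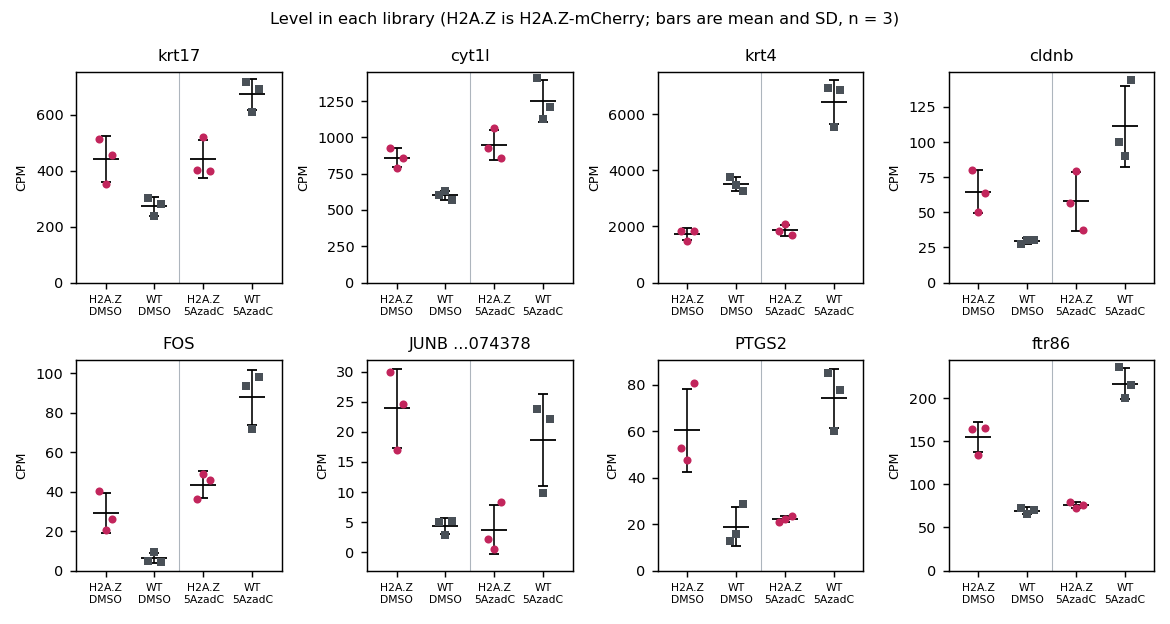
Level in CPM of 8 genes in each of the 12 libraries, with H2A.Z-mCherry (red circles) left of wild type (dark squares) in DMSO and in 5AzadC, and with mean and SD (n = 3). krt4 is lower in H2A.Z-mCherry in both treatments. The other 7 genes are higher in H2A.Z-mCherry with DMSO and lower with 5AzadC, where the wild-type levels are high.

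Of 72 tested ribosomal protein genes 17 rose, by small amounts, and 2 fell (26.4% called, against 5.32% of all tested genes), the median log2 fold change was 0.18 and 56 of 72 were above 0. Ribosomal protein genes are abundant, and among all genes 12.6% were called at 300 to 1000 CPM and 25.7% at 1000 CPM and above. These shares include ribosomal protein genes, so they are not independent of this list. RPS16 (ENSDARG00000045487) had 437, 359 and 443 CPM in H2A.Z-mCherry libraries and 209, 231 and 222 CPM in wild-type libraries (log2 fold change 0.90 ± 0.10, adjusted p = 1.18e-10). RPS29 had 499, 426 and 433 CPM in H2A.Z-mCherry libraries and 257, 262 and 257 CPM in wild-type libraries (log2 fold change 0.81 ± 0.10, adjusted p = 2.36e-09). rps20 had 1289, 943 and 983 CPM in H2A.Z-mCherry libraries and 596, 688 and 665 CPM in wild-type libraries (log2 fold change 0.72 ± 0.09, adjusted p = 1.47e-09). None of the 3 had overlapping groups, and 12 of the other 14 rises were below 0.5 on the log2 scale. The falls were rps27l (-1.003 ± 0.28) and rplp2 (-0.45 ± 0.13), an acidic stalk protein. The share of counts in ribosomal protein genes was 4.44% ± 0.20 in H2A.Z-mCherry libraries and 4.03% ± 0.17 in wild-type libraries (SD, n = 3 each; exact permutation p = 0.1, two-sided). The summed level of these genes was 44516 ± 3039 CPM in H2A.Z-mCherry libraries and 40195 ± 1951 CPM in wild-type libraries (SD, n = 3 each). These scaled sums overlapped between groups (exact permutation p = 0.2, two-sided). With 5AzadC 11 of the genes were higher and 14 lower, and the median was -0.05. In the DMSO contrast, leaving out H2A.Z-mCherry replicate 3 gave 10 rises and no fall, and leaving out wild-type replicate 1 gave 10 rises and 3 falls. rps27l was not called without H2A.Z-mCherry replicate 1 or 3 or wild-type replicate 3, with only 6 libraries (adjusted p 0.0537 to 0.244), and rplp2 without H2A.Z-mCherry replicate 2 or 3 or wild-type replicate 2, in DESeq2 (adjusted p 0.0599 to 0.304).

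Translation elongation factors, listed after their values were seen, were higher at 6 of 9 tested genes and lower at none (2.73% of all tested genes were higher; median 0.46). Some of them are abundant, and among all genes at 1000 CPM and above 21.4% were higher. That share includes eef1a1l1 and eef2b, so it is not independent of this list. eef1a1l1, which brings aminoacyl-tRNA to the ribosome, had 14146, 12811 and 14842 CPM in H2A.Z-mCherry libraries and 10023, 11244 and 10741 CPM in wild-type libraries (log2 fold change 0.38 ± 0.06, adjusted p = 8.24e-06). eef2b, which moves the ribosome along the message, had 10174, 9418 and 10578 CPM in H2A.Z-mCherry libraries and 6823, 7728 and 7330.4 CPM in wild-type libraries (log2 fold change 0.46 ± 0.07, adjusted p = 1.46e-07). Its rare paralog eef2a.2 had 36.5, 34.1 and 49.3 CPM in H2A.Z-mCherry libraries and 4.43, 4.60 and 7.17 CPM in wild-type libraries (log2 fold change 2.87 ± 0.39, adjusted p = 4.47e-08). The abundant genes thus rose by under 1 on the log2 scale and the rare paralog by several fold. EEF1B2 was at 0.76 ± 0.11, EEF1G at 0.36 ± 0.09 and eef2a.1 at 0.66 ± 0.20. EEF1G was not called without H2A.Z-mCherry replicate 3 or wild-type replicate 1 (adjusted p 0.052 to 0.0792), and eef2a.1 without H2A.Z-mCherry replicate 1 or 2 or wild-type replicate 1 or 2, in DESeq2 (adjusted p 0.0709 to 0.217). With 5AzadC eef1a1l1 was lower in H2A.Z-mCherry (-0.19 ± 0.06) and eef2b was not called (0.03 ± 0.07). Heat shock and chaperone genes were higher at 2 of 19 tested (10.5%, against 2.73% of all tested genes). HSP90AB1 had 4189, 4255 and 4882 CPM in H2A.Z-mCherry libraries and 3276, 3542 and 3306 CPM in wild-type libraries (log2 fold change 0.40 ± 0.07). HSPA8 was at 1.25 ± 0.25. HSPA8 was not called without H2A.Z-mCherry replicate 2 or 3 or wild-type replicate 1, 2 or 3 (adjusted p 0.0532 to 0.0938).

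Histone genes went both ways. hist1h2a2 (ENSDARG00000103015), an H2A gene, had 29.985, 25.9 and 22.9 CPM in H2A.Z-mCherry libraries and 140.4, 143 and 122 CPM in wild-type libraries. The wild-type values lay several fold above the H2A.Z-mCherry ones (log2 fold change -2.36 ± 0.20, adjusted p = 2.78e-15). H3-3B, a gene for the replication-independent histone H3.3, had 81.8, 53.5 and 61.2 CPM in H2A.Z-mCherry libraries and 132, 121 and 149 CPM in wild-type libraries (log2 fold change -1.04 ± 0.16, adjusted p = 6.1e-07). The linker histone gene histh1l1 had 147, 178 and 181 CPM in H2A.Z-mCherry libraries and 71.5, 84.0 and 71.7 CPM in wild-type libraries (log2 fold change 1.15 ± 0.14, adjusted p = 3.18e-09). Over all 28 tested genes with a core or linker histone symbol, a list made after the values were seen, 4 were higher and 3 lower. The share called was 25%, against 5.32% of all tested genes, and the median was 0.07. hist1h2a2 was lower in 5AzadC as well (-1.78 ± 0.20).

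Among regulators of chromatin 4% of histone chaperones and linker proteins and 6.9% of DNA methylation and heterochromatin genes were called. Both shares were near the 5.32% of all tested genes. SET, a histone chaperone and phosphatase inhibitor, had 354, 429.7 and 382 CPM in H2A.Z-mCherry libraries and 495, 525 and 543 CPM in wild-type libraries (ENSDARG00000003920, log2 fold change -0.42 ± 0.09, adjusted p = 0.000978). It was the only call among 25 tested histone chaperones and linker proteins (median -0.06). Of 29 tested genes of DNA methylation and heterochromatin 2 were lower (median 0.00). UHRF1, which recruits the maintenance methyltransferase to newly copied DNA, had 218, 213 and 178 CPM in H2A.Z-mCherry libraries and 248, 289 and 263 CPM in wild-type libraries (log2 fold change -0.39 ± 0.11, adjusted p = 0.0242). In 5AzadC it was higher in H2A.Z-mCherry (0.66 ± 0.12). EHMT1, a histone H3 lysine methyltransferase, was at -0.93 ± 0.28. UHRF1 was not called without H2A.Z-mCherry replicate 3 or wild-type replicate 2 or 3, in DESeq2 (adjusted p 0.0515 to 0.215), and EHMT1 without H2A.Z-mCherry replicate 1 or 3 or wild-type replicate 1 or 3, in DESeq2 (adjusted p 0.113 to 0.206). None of 24 tested genes of the polycomb and trithorax groups and none of 13 of the germline and piRNA pathway was called (medians -0.02 and -0.16).

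Of 22 tested skeletal muscle genes 2, both actins, fell and none rose (9.09% called, against 5.32% of all tested genes), the median log2 fold change was -0.24 and only 2 of 22 were above 0. actc1b (ENSDARG00000099197), the first sarcomeric actin of the somites, had 34.0, 42.3 and 24.6 CPM in H2A.Z-mCherry libraries and 106, 105 and 89.3 CPM in wild-type libraries. The highest H2A.Z-mCherry value was under 0.5 times the lowest wild-type value (log2 fold change -1.55 ± 0.22, adjusted p = 2.28e-07). ACTA1 (ENSDARG00000036371), skeletal alpha actin, had 112, 67.6 and 54.4 CPM in H2A.Z-mCherry libraries and 133, 132 and 123 CPM in wild-type libraries (log2 fold change -0.74 ± 0.19, adjusted p = 0.00815). actc1c, described among the largest falls, is a further member of the actin family. Among the 7 tested actins, a list made after the values were seen, 4 were lower (57.1%, against 2.59% of all tested genes). The fourth was the cytoplasmic actb1 (-0.33 ± 0.10), and 2 of the actins were lower in DESeq2 and without H2A.Z-mCherry replicate 2 or 3. MYOG (-0.42), MYF5 (-0.15) and the titin genes (-0.14 and -0.08) did not pass the test. ACTA1 was not called without H2A.Z-mCherry replicate 2 or 3, in DESeq2 (adjusted p 0.0507 to 0.114), and actb1 without H2A.Z-mCherry replicate 2 or 3 or wild-type replicate 1, 2 or 3, in DESeq2, with the replicate block, without H2A.Z-mCherry 5AzadC replicate 1 (adjusted p 0.0539 to 0.351). The summed level of the muscle list was 6328 ± 204 CPM in H2A.Z-mCherry libraries and 7041 ± 443 CPM in wild-type libraries (SD, n = 3 each, exact permutation p = 0.1, two-sided). With 5AzadC the mean sum was 4269 CPM in H2A.Z-mCherry libraries and 3622 CPM in wild-type libraries. There 2 genes of the list were higher and 1 lower, the list median was 0.12 and actc1b was at -0.32.

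Of 65 tested genes of the extracellular matrix and basement membrane 6 fell and none rose (9.23% called, where 2.73% of all tested genes were higher and 2.59% lower; median -0.07). COL4A4, near the limit of counting in H2A.Z-mCherry, had the largest fall. COL14A1, a collagen on the surface of fibrils, had 92.4, 109.9 and 79.9 CPM in H2A.Z-mCherry libraries and 169, 185 and 221 CPM in wild-type libraries (log2 fold change -1.02 ± 0.15, adjusted p = 2.47e-07). COL9A2, a cartilage and notochord sheath collagen, had 30.8, 18.2 and 17.0 CPM in H2A.Z-mCherry libraries and 41.7, 56.4 and 43.7 CPM in wild-type libraries (log2 fold change -1.11 ± 0.30, adjusted p = 0.0127). The others were col16a1 (-0.91 ± 0.25), col5a3a (-0.67 ± 0.19) and ITGA9, an integrin subunit (-0.49 ± 0.15). The 6 falls numbered 3 without H2A.Z-mCherry replicate 2 or wild-type replicate 3. COL9A2 was not called without H2A.Z-mCherry replicate 2 or 3 or wild-type replicate 2, in DESeq2 (adjusted p 0.0833 to 0.108), col16a1 without H2A.Z-mCherry replicate 1 or wild-type replicate 1 or 3 (adjusted p 0.0518 to 0.117), col5a3a without H2A.Z-mCherry replicate 2 or wild-type replicate 1 or 3, in DESeq2 (adjusted p 0.0511 to 0.323) and ITGA9 without H2A.Z-mCherry replicate 1 or 2 or wild-type replicate 2 or 3, in DESeq2 (adjusted p 0.0616 to 0.304).

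Patterning genes were called at shares around the 5.32% of all tested genes. The shares were 3.45% for the somite list, 8.33% for Fgf, 3.92% for Bmp, Nodal and TGF-beta and 2.7% for Notch. MEOX1 (ENSDARG00000007891), a homeobox factor of the somites, had 82.7, 51.7 and 73.1 CPM in H2A.Z-mCherry libraries and 13.9, 21.9 and 6.52 CPM in wild-type libraries. All H2A.Z-mCherry values were over 2 times the highest wild-type value (log2 fold change 2.25 ± 0.27, adjusted p = 8.25e-10). It was the only call among 29 tested genes of the somites and presomitic mesoderm (median 0.13). etv5b, a transcription factor induced by Fgf signals, had 167, 171.65 and 149 CPM in H2A.Z-mCherry libraries and 94.2, 102 and 111 CPM in wild-type libraries (log2 fold change 0.67 ± 0.14, adjusted p = 0.000585). With the receptor FGFR1 (ENSDARG00000011027, 0.32 ± 0.10) it made 2 rises among 24 Fgf genes (median 0.11). Of 51 genes of Bmp, Nodal and TGF-beta signalling smad9 was higher (0.71 ± 0.20) and the receptor bmpr1bb lower (-0.80 ± 0.23), with a median of 0.03. Of 37 Notch genes the ligand jag1a was higher (0.59 ± 0.18, median 0.10). FGFR1 was not called without H2A.Z-mCherry replicate 2 or 3 or wild-type replicate 1, 2 or 3, in DESeq2 (adjusted p 0.0571 to 0.168), smad9 without H2A.Z-mCherry replicate 1 or 3 or wild-type replicate 3 (adjusted p 0.0505 to 0.136), bmpr1bb without H2A.Z-mCherry replicate 3 or wild-type replicate 2 or 3 (adjusted p 0.0727 to 0.173) and jag1a without H2A.Z-mCherry replicate 1, 2 or 3 or wild-type replicate 2 or 3, in DESeq2 (adjusted p 0.0523 to 0.185).

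In the neural plate list six7, an eye field factor, and emx3, a forebrain factor, were higher and sox19a, a SoxB1 factor of neural progenitors, lower, 3 of 36 tested (8.33% called, against 5.32% of all tested genes, median 0.05). sox19a had 226, 172.24 and 146 CPM in H2A.Z-mCherry libraries and 253, 307 and 240.5 CPM in wild-type libraries (log2 fold change -0.56 ± 0.12, adjusted p = 0.00115). six7 had 68.1, 66.4 and 69.7 CPM in H2A.Z-mCherry libraries and 46.2, 35.1 and 33.9 CPM in wild-type libraries (log2 fold change 0.82 ± 0.22, adjusted p = 0.0133). The SoxB1 gene sox19b, which is also supplied by the egg and helps to activate the zygotic genome, was the only call among 31 tested transcription factors of the blastula and gastrula. It had 118, 132 and 148 CPM in H2A.Z-mCherry libraries and 91.1, 89.1 and 93.8 CPM in wild-type libraries (log2 fold change 0.54 ± 0.16, adjusted p = 0.0233). Of these 31 early factors 25 were above 0, with a median of 0.27, and their summed level was 1326 ± 70.0 CPM in H2A.Z-mCherry libraries and 1137 ± 8.92 CPM in wild-type libraries (SD, n = 3 each; exact permutation p = 0.1, two-sided). sox19a and sox19b thus had opposite signs in the same libraries. sox19b was not called without H2A.Z-mCherry replicate 2 or 3 or wild-type replicate 1, 2 or 3, in DESeq2 (adjusted p 0.0559 to 0.142), sox19a without H2A.Z-mCherry replicate 3 or wild-type replicate 2 (adjusted p 0.0503 to 0.0536), six7 without H2A.Z-mCherry replicate 3 or wild-type replicate 2 or 3 (adjusted p 0.0501 to 0.0804) and emx3 without H2A.Z-mCherry replicate 2 or 3 or wild-type replicate 1, 2 or 3, in DESeq2, without the filter (adjusted p 0.0607 to 0.126).

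No gene was called among 31 tested hox genes, which set position along the body axis (median 0.05), 40 genes of Wnt signalling (0.10), 24 of the neural crest and placodes (-0.00) and 23 of the notochord and axis (-0.11). The same held for 16 genes of the heart and lateral plate (0.13), 7 of the endoderm (-0.05), 12 of the retinoic acid pathway (0.12), 13 of aldehyde, xenobiotic and glutathione metabolism (0.11) and 74 of oxidative phosphorylation (0.03). At this depth small differences of these genes could not be detected, and a p above the threshold does not show that they were equal. In all, 13 of the 39 lists with tested genes had no call, 7 had only rises, 6 only falls and 13 both. Of the 1030 tested genes in any list 102 were called (9.90%), against 5.32% of all tested genes. The lists were drawn up with earlier results of these data known, so this share is a description only.

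**Figure D5:**
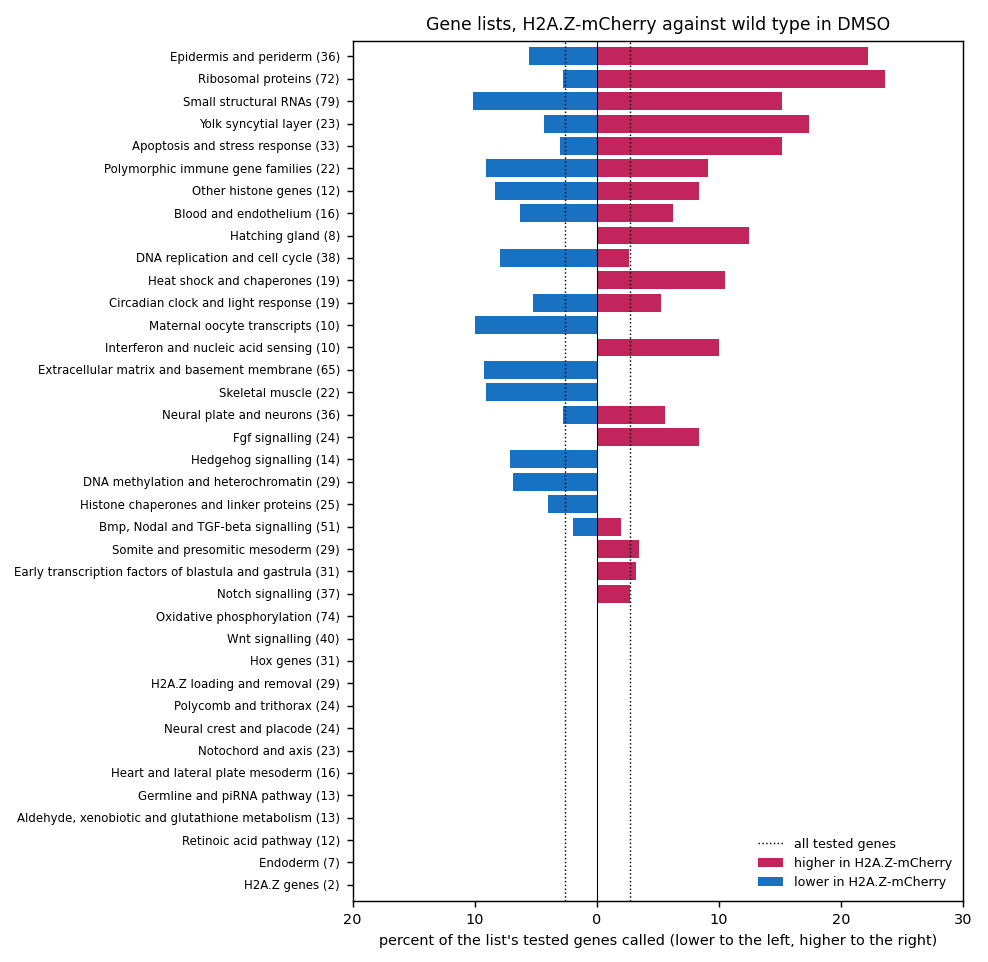
Share of each list's tested genes (number in brackets) called higher (red, to the right) or lower (blue, to the left) in H2A.Z-mCherry with DMSO, in percent. Dotted lines mark the shares over all tested genes, 2.73% higher and 2.59% lower. Epidermal genes (27.8%) and ribosomal protein genes (26.4%) have the highest shares called of the lists shown, and 13 of them have none.

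Genes of the yolk syncytial layer, the nutrient-exporting layer under the embryo, were higher at 4 of 23 tested and lower at 1 (21.7% called, against 5.32% of all tested genes, median 0.05). tfa, transferrin, had 366, 373 and 331 CPM in H2A.Z-mCherry libraries and 231, 282 and 255 CPM in wild-type libraries (log2 fold change 0.48 ± 0.11, adjusted p = 0.00266). apobb.2, an apolipoprotein B gene, had 77.0, 63.5 and 48.4 CPM in H2A.Z-mCherry libraries and 149, 118 and 127 CPM in wild-type libraries (log2 fold change -1.05 ± 0.19, adjusted p = 2.29e-05). Every wild-type value of apobb.2 was above every H2A.Z-mCherry value, which made it the fall. The other rises were afp4 (ENSDARG00000095863, 0.43 ± 0.11), selenop, a selenium carrier (0.67 ± 0.18), and apoa1b, an apolipoprotein (0.33 ± 0.10). With 5AzadC apoa1b was called lower (-0.35 ± 0.10), and of the whole list 3 genes were higher and 4 lower. DESeq2 called 2 of the 4 rises, and 1 was left without H2A.Z-mCherry replicate 1 or wild-type replicate 1. The gene afp4 was not called without H2A.Z-mCherry replicate 1 or wild-type replicate 1 (adjusted p 0.0692 to 0.0704), selenop without H2A.Z-mCherry replicate 1 or 2 or wild-type replicate 1 or 3, in DESeq2 (adjusted p 0.0535 to 0.0845) and apoa1b without H2A.Z-mCherry replicate 1 or 3 or wild-type replicate 1, in DESeq2 (adjusted p 0.0642 to 0.292). Sterol genes, listed after the values were seen, were higher at 3 of 20 tested and lower at 1. These are 20% of the list, against 5.32% of all tested genes, with a list median of 0.38. DHCR7, the last enzyme of cholesterol synthesis, had 32.4, 26.5 and 38.2 CPM in H2A.Z-mCherry libraries and 5.06, 9.20 and 11.1 CPM in wild-type libraries (log2 fold change 1.92 ± 0.34, adjusted p = 2.51e-05). srebf2, the master regulator of this pathway, had 232, 212 and 301 CPM in H2A.Z-mCherry libraries and 149, 151 and 164 CPM in wild-type libraries (log2 fold change 0.68 ± 0.12, adjusted p = 4.15e-05). The LDL receptor gene ldlrb was also higher (0.59 ± 0.15) and ABCA1, which exports cholesterol, lower (-0.65 ± 0.11). ldlrb was not called without H2A.Z-mCherry replicate 3 or wild-type replicate 2 (adjusted p 0.1 to 0.129). SQLE, the squalene epoxidase (1.15, adjusted p = 0.107), missed the threshold. With 5AzadC 1 gene of the sterol list was higher and 3 lower, and the list median was -0.10. There ldlrb was called lower in H2A.Z-mCherry (-0.60 ± 0.15).

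Cell cycle genes were called in both directions. RRM2, a subunit of ribonucleotide reductase, is the symbol of 2 tested genes with opposite calls. ENSDARG00000078069 had 74.6, 102 and 110.5 CPM in H2A.Z-mCherry libraries and 49.3, 63.8 and 48.9 CPM in wild-type libraries (log2 fold change 0.82 ± 0.19, adjusted p = 0.00195). ENSDARG00000020711 had 5.67, 4.11 and 7.65 CPM in H2A.Z-mCherry libraries and 44.9, 13.2 and 36.5 CPM in wild-type libraries (log2 fold change -2.45 ± 0.43, adjusted p = 1.88e-05). Both differences had the same sign in 5AzadC (1.46 and -1.89). Among the 38 tested genes of DNA replication and the cell cycle 1 was higher and 3 lower (10.5% called, against 5.32% of all tested genes). The list median was -0.11, and beside RRM2 the falls were ORC1 of the origin recognition complex (-3.11 ± 0.64) and cyclin A2 (CCNA2, -0.47 ± 0.14). CCNA2 was not called without H2A.Z-mCherry replicate 1 or 3 or wild-type replicate 1 or 3, in DESeq2 (adjusted p 0.0543 to 0.233).

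Other lists gave 1 or 2 calls in a direction, where 5.32% of all tested genes were called. Each list held 8 to 22 tested genes, so 1 call makes a large share. Of 16 tested blood and endothelial genes CEBPB was higher and LCP1, the leukocyte plastin, lower (-1.47 ± 0.25, adjusted p = 1.35e-05, list median 0.18). Of 10 interferon and nucleic acid sensing genes isg20 was higher, with 7.29, 19.4 and 7.65 CPM in H2A.Z-mCherry libraries and 4.43, 0.575 and 0.652 CPM in wild-type libraries (log2 fold change 2.62 ± 0.61, list median -0.23). Of 22 tested genes of polymorphic immune families ftr86 and nlrp12l (2.21 ± 0.41) were higher and ftr06 and NLRX1 (-1.67 ± 0.41) lower. Of 19 clock genes PER3 was higher, with 142, 143 and 179 CPM in H2A.Z-mCherry libraries and 96.1, 98.9 and 104 CPM in wild-type libraries (0.63 ± 0.15), and CLOCK (ENSDARG00000011703) lower (-0.91 ± 0.29, list median 0.07). Of 8 hatching gland genes he1.1, a hatching enzyme, was higher (0.54 ± 0.17, list median 0.04). Of 10 maternal oocyte transcripts YBX1 was lower (-0.32 ± 0.10, list median -0.42), with overlap between groups. isg20 was not called without H2A.Z-mCherry replicate 2 (adjusted p 0.113), NLRX1 without H2A.Z-mCherry replicate 2 (adjusted p 0.0944), PER3 without H2A.Z-mCherry replicate 3 (adjusted p 0.0758), CLOCK without H2A.Z-mCherry replicate 1, 2 or 3 or wild-type replicate 1, 2 or 3, in DESeq2, without the filter (adjusted p 0.0557 to 0.237), he1.1 without H2A.Z-mCherry replicate 1, 2 or 3 or wild-type replicate 1 or 2, in DESeq2 (adjusted p 0.0542 to 0.262) and YBX1 without H2A.Z-mCherry replicate 1 or 2 or wild-type replicate 1 or 2, in DESeq2 (adjusted p 0.0998 to 0.206).

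Called genes lay next to each other more often than other genes did. In the gene order of assembly GRCz12tu, used here for order only, 8529 tested genes could be placed by symbol and 422 of them were called (4.95%). Of these 90 (21.3%) had a called gene as a direct neighbour among the placed genes, against 8.84% of the genes that were not called. There were 32 runs of 2 or more neighbours called in the same direction, with 73 genes. Some neighbours are paralogs that may share reads, such as the keratins or eef2a.1 and eef2a.2. How far shared reads account for the neighbouring calls was not tested. After the keratins, the next run was srebf2 (0.68), zgc:172253 (28 counts in the H2A.Z-mCherry libraries and 2 in the wild-type libraries), zgc:172051 (2.31) and zgc:112234 (0.78). BIRC2, an inhibitor of apoptosis, POLQ, a repair polymerase, and PCF11 (2.88), a 3' end processing factor, formed a run of rises. BIRC2 had 28 counts in the H2A.Z-mCherry libraries and 2 in the wild-type libraries, a ratio of 16.5 (95% counting interval 4.17 to 143). POLQ had 37 counts in the H2A.Z-mCherry libraries and 3 in the wild-type libraries, a ratio of 14.6 (95% counting interval 4.61 to 73.8). MAST2 (-3.41) and GPBP1L1 (-3.99) formed a run of falls. The 9 genes from srebf2 to GPBP1L1 had the same sign in 5AzadC. In contrast, irg1l (1.90), si:ch211-153b23.3 (2.82) and si:ch211-153b23.4 (1.84), also neighbours, were at -1.85, -0.65 and -0.91 in 5AzadC. The called share per chromosome ranged from 2.01% to 7.93% over 25 chromosomes, so no chromosome held most calls. zgc:172253 was not called without H2A.Z-mCherry replicate 1 or 3 or wild-type replicate 1 or 3 (adjusted p 0.0542 to 0.0824), BIRC2 without H2A.Z-mCherry replicate 2 or wild-type replicate 3 (adjusted p 0.0543 to 0.0715) and si:ch211-153b23.3 without H2A.Z-mCherry replicate 1 or 2 or wild-type replicate 2 or 3, in DESeq2 (adjusted p 0.0516 to 0.217).

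Genes known by a clone name or an identifier alone were called more often than genes with a gene name. Of 1776 such genes 64 were higher and 79 lower (8.05%), against 257 and 230 of 10400 other named protein and RNA genes (4.68%). They were 14.4% of the tested genes and 40.5% of the 163 calls with an absolute log2 fold change of at least 2. Of 554 symbols carried by 2 or more tested genes 45 had a called gene, where 5.32% of all tested genes were called. A symbol with several genes has several chances of a call, so the count of 45 does not show that such symbols were called more often. Of the 45 symbols, RRM2, U1 and Metazoa_SRP had calls in both directions. ACTA1, SET, CLOCK, FGFR1, FBXL14, PTGS2 and afp4 each had 2 tested genes, of which only 1, the gene described above, was called. All 3 hnrnpa0 genes, which encode RNA-binding proteins, were higher. hnrnpa0b had 81.0, 62.3 and 68.8 CPM in H2A.Z-mCherry libraries and 23.4, 27.6 and 12.4 CPM in wild-type libraries (log2 fold change 1.72 ± 0.24, adjusted p = 5.74e-08). The 3 together had 226, 249 and 209.9 CPM in H2A.Z-mCherry libraries, against 77.8, 98.4 and 58.6 CPM in wild-type libraries. The counts of hnrnpa0b and si:ch211-195b11.4 differed by 0.42% over the libraries, and those of ano9a and si:dkey-261m9.5 by 0.07%, so each pair may stand for the same reads.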

How the data were processed

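Total RNA of whole embryos was sequenced. Per the submitters' processing notes the reads were handled with STAR, featureCounts 2.0.3 and genome build GRCz11, and the authors deposited 1 table of whole-number counts per gene. Annotation release, strand setting and treatment of multimapping reads are not stated there. The counts were tested as deposited with edgeR 4.0.16 in R 4.3.3: filterByExpr by group, TMM factors, 1 robust quasi-likelihood fit over 12 libraries with a mean for each of 4 groups, Benjamini-Hochberg adjustment over 12293 genes and a call at an adjusted p under 0.05. The standard error is the log2 fold change over the root of F. The common biological coefficient of variation was 14.8%. Tested genes held 98.5% of counts. Every adjusted p in the text is from this test unless another tool is named.

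Named genes were the 12 highest and 12 lowest fold changes, the 8 smallest p-values per direction, up to 3 called members per direction of each list, genes with counts in 1 genotype only, the longest run of neighbours, the H2A.Z genes and rn7sl1. Other genes named, and 5 gene lists (elongation factors, histones by symbol, actins, sterol, immediate early), were chosen after their values were seen, and the list of polymorphic immune families was corrected then. Members and lists were chosen with earlier results of these data known. Gene order came from assembly GRCz12tu, matched by symbol. Counting intervals and floors (95%, 3 counts over a group) cover counting error only. Single library values were compared by exact permutation test, two-sided. The alternatives were 20: DESeq2 1.42.0, other size factors, other filters, 6 libraries, rn7sl1 left out, the replicate number as a block and each library left out. Same-numbered libraries of the 2 genotypes did not deviate together (correlations -0.01, -0.00 and 0.00), so the numbers were not taken as pairs. Some genes and 1 gene list are not reported here.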

Additional observations from a re-analysis of the deposited data

Results flagged for a closer look

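The genotype difference of 21 of the genes named by rule itself differed between DMSO and 5AzadC, by the interaction term of edgeR's quasi-likelihood test adjusted over all tested genes, and each value here is the log2 fold change of H2A.Z-mCherry over wild type in DMSO minus that in 5AzadC. Immediate early and immune genes had positive values: ftr86 (2.66, adjusted p 2.49e-17), FOS (3.16, adjusted p 4.45e-08), CEBPB (1.73, adjusted p 0.00441) and the JUNB genes ENSDARG00000074378 (4.64, adjusted p 2.82e-06) and ENSDARG00000104773 (3.36, adjusted p 2.98e-07). So had the keratins krt17 (1.3, adjusted p 5.78e-07), krt92 (0.929, adjusted p 4.66e-07), cyt1l (0.911, adjusted p 1.45e-07), cyt1 (0.824, adjusted p 1.62e-06) and krt4 (0.752, adjusted p 0.000135), the last of which was lower in H2A.Z-mCherry under both treatments. MEOX1 (1.22, adjusted p 0.0421) and the signal recognition particle RNA copies Metazoa_SRP ENSDARG00000111072 (0.592, adjusted p 0.000623) and rn7sl1-5 (0.48, adjusted p 0.00416) were also above 0. Values below 0 belonged to UHRF1 (-1.06, adjusted p 8.03e-06), sox19a (-0.954, adjusted p 0.000145), sox19b (-0.8, adjusted p 0.032), CCNA2 (-0.707, adjusted p 0.0303), SET (-0.548, adjusted p 0.00454), actc1b (-1.23, adjusted p 0.0225) and rnu2 (-0.532, adjusted p 0.0153). The value of si:dkey-11n14.1 (-5.89, adjusted p 0.0193) rests on 0 counts in H2A.Z-mCherry with DMSO and is a fitted value, not a bound. Genes chosen after their values were seen also passed, PTGS2, cldnb, eef1a1l1, ets2, ldlrb, irg1l and ier2a among them. Of the genes named by rule, FOS, ftr86, both JUNB genes, krt17, krt92, cyt1l, cyt1, UHRF1 and sox19a were called in opposite directions under the 2 treatments. Most genes named by rule were chosen by their DMSO difference, which is part of the interaction. The count of 21 is therefore a description only.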

How the results depend on the processing

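No called gene changed direction under any of the 20 alternatives. Of the 654 genes 266 were called in every alternative that tested them and 388 were lost in 1 or more; of the 97 called genes named by rule, 67 were called in every alternative and 30 lost in 1 or more. DESeq2 called 465 genes, of which 428 were shared. The 6 DMSO libraries alone gave 710 calls, and other size factors, other filters and the removal of rn7sl1 gave 658 to 685. The fit with the replicate block gave 651 calls, 627 of them shared, and same-numbered libraries were not found to pair. Leaving out 1 library gave 442 (H2A.Z-mCherry with DMSO, replicate 3) to 737 calls (wild type with 5AzadC, replicate 3), of which 210 to 349 were falls. Falls of the interaction numbered 152 to 300, with 152 without H2A.Z-mCherry replicate 1 and also without wild-type replicate 1, both with 5AzadC. The causes were not tested. The share of calls with the same sign in 5AzadC was 81% to 86.7%. Depth limits the text most for genes below 10 CPM, where a value rests on few counts and called changes had a median size of 3.01 on the log2 scale.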
